A study of Mus musculus with 6 samples.

Results

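Chemokine ligands and chemokine receptors other than Cxcl12 were followed in cultured bone marrow MSCs from Pcif1-floxed mice with and without Prrx1-Cre. Members were chosen by gene symbol: CC, CXC, CX3C and XC ligands and receptors, the atypical receptors Ackr1 to Ackr4, and Ccrl2, with 1 entry per Ensembl ID. The 44 members described here, of 20071 genes in the table, comprise 27 ligands and 17 receptors. A gene was tested when it passed the expression filter of edgeR, which 28 of the 44 did (18 ligands and 10 receptors).

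MSCs are stromal cells that can form osteoblasts, and these came from the femoral marrow of 6-week-old mice on a C57BL/6J background. The control libraries, labelled WT, were Pcif1fl/fl, which carry loxP sites around part of Pcif1 but no Cre. The libraries labelled CKO were Prrx1-Cre;Pcif1fl/fl, in which the limb-mesenchyme driver Prrx1 expresses the recombinase, so blood-derived cells in the same dish are not expected to be recombined. Both genotypes spent 7 days in osteogenic medium with ascorbic acid, β-glycerophosphate and dexamethasone, and 3 libraries of each were sequenced. The 2 genotypes are called WT and CKO hereafter, as in the labels.

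Chemokines are small secreted proteins that bind to glycosaminoglycans and draw cells along a gradient. Their classical receptors couple to inhibitory G proteins and are carried mainly by leukocytes, whereas the atypical receptors take up ligand without that signal. In bone marrow, stromal cells release ligands that hold or mobilise haematopoietic cells, and macrophages and osteoclast precursors carry many of the receptors. PCIF1 methylates the first transcribed nucleotide of capped mRNAs when it is an adenosine.

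The libraries held 20258209 to 28227696 counts. Levels are given in CPM, read counts relative to the TMM-scaled size of the library (edgeR), and log2 fold changes compare CKO over WT MSCs. The targeted gene stood at 39.3 to 42.8 CPM in WT and 37.8 to 39.7 CPM in CKO libraries, with overlap, so Pcif1 counts over the whole gene did not separate the genotypes. Xist ranged from 232 to 443 CPM in WT and from 0.722 to 1.79 CPM in CKO libraries, and the Y-linked Ddx3y from 48.4 to 62.2 and from 99.1 to 104 CPM, so that genotype and the sex of the donor mice cannot be told apart in any result here. WT replicate 3 had 3.63% of its counts on mitochondrial genes against 1.40% to 1.57% in the other libraries, and results that turn on it are given without it. The labels do not say whether replicates were separate mice or separate dishes, so p-values measure the spread between these libraries.

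Per kilobase of exon, and with Cxcl12 left out, the order was led by CC ligands known from myeloid cells. Ccl6 (220 and 259 CPM per kb in WT and CKO MSCs) and Ccl9 (182 and 179), 2 mouse ligands of CCR1, led the order in both genotypes. In the controls Ccl3 (57.3 CPM per kb), Ccr1 (35.2) and Ccl7 (20.7) stood higher than Ccl2 (10.7), whereas in CKO cultures Ccl3 (65.8), Ccl7 (65.5) and Ccl2 (49.6) stood close together. Among receptors, Cxcr4 led in the controls with 52.8 CPM per kb, and Ccr1 led in CKO cultures with 71.4. Summed over genes in CPM, without regard to length, Ccl9 and Ccl6 held 76.4% to 86.0% of the counts of the 27 ligands in each library, a sum without Cxcl12, and Ccr1, Cxcr4 and Ackr4 held 94.0% to 95.2% of those of the 17 receptors.

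**Figure D1:**
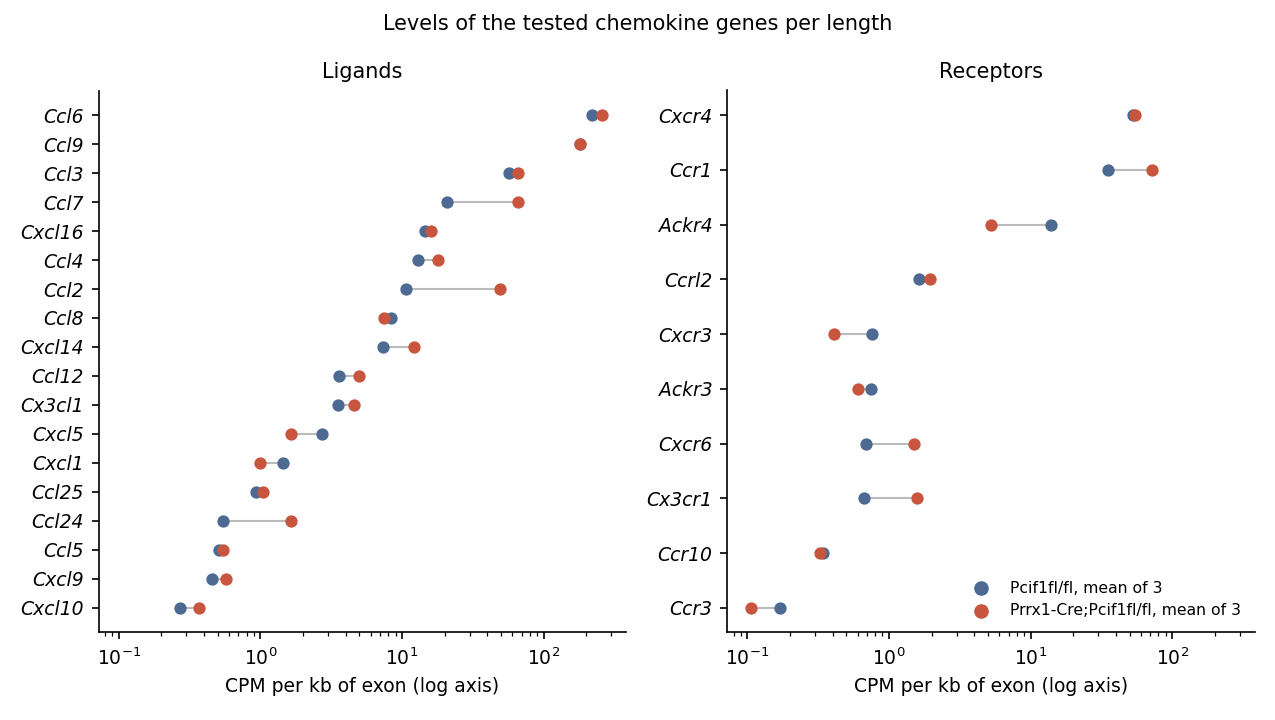
Mean level of the chemokine ligands and receptors in each genotype, in CPM per kilobase of exon on a log axis. Ccl6 and Ccl9 lie near the top in both genotypes, while Ccl2 and Ccl7 lie further to the right in CKO MSCs (49.6 and 65.5 CPM per kb) than in WT MSCs (10.7 and 20.7).

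Ccl2, Ccl7 and Ccl24 among the ligands and Ccr1, Cx3cr1 and Cxcr6 among the receptors were up-regulated in CKO MSCs, and the atypical receptor Ackr4 was down-regulated. Up- or down-regulation was called at an adjusted p under 0.05 together with a log2 fold change of 1 or more in either direction, in edgeR's quasi-likelihood test, adjusted over all 13733 genes tested. By that criterion 3 of 18 ligands and 3 of 10 receptors rose, against 1.03% of all genes tested, and 0 ligands and 1 receptor fell, against 2.50% of all genes tested. At an adjusted p under 0.05 with no limit on the fold, Cxcl14 joined the ligands that rose, for 4 of 18, where 2.88% of all genes tested passed in that direction. Of the 3 receptors that rose, 0 still met both limits without WT replicate 2, and 1 did without CKO replicate 1 or CKO replicate 2. The share of all genes that rose was itself 1.65% without WT replicate 3 and 0.637% to 0.683% without WT replicate 2 or any 1 CKO library. No ligand fell under limma-voom, nor by that fold criterion under DESeq2, and 1 ligand, Cxcl5, was lower in edgeR at an unadjusted p under 0.05.

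Among the tested members, the 3 libraries of each genotype did not overlap for 7 ligands that were higher and 1 that was lower in CKO MSCs, and for 3 receptors that were higher and 2 that were lower. Over all genes tested, 15.0% did not overlap in the higher and 15.7% in the lower direction. The median log2 fold change was 0.27 over the tested ligands and 0.0056 over the tested receptors, beside 0.0017 over all genes tested. Without WT replicate 3 the ligand median was 0.44, and without CKO replicate 2 the receptor median was 0.13.

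**Figure D2:**
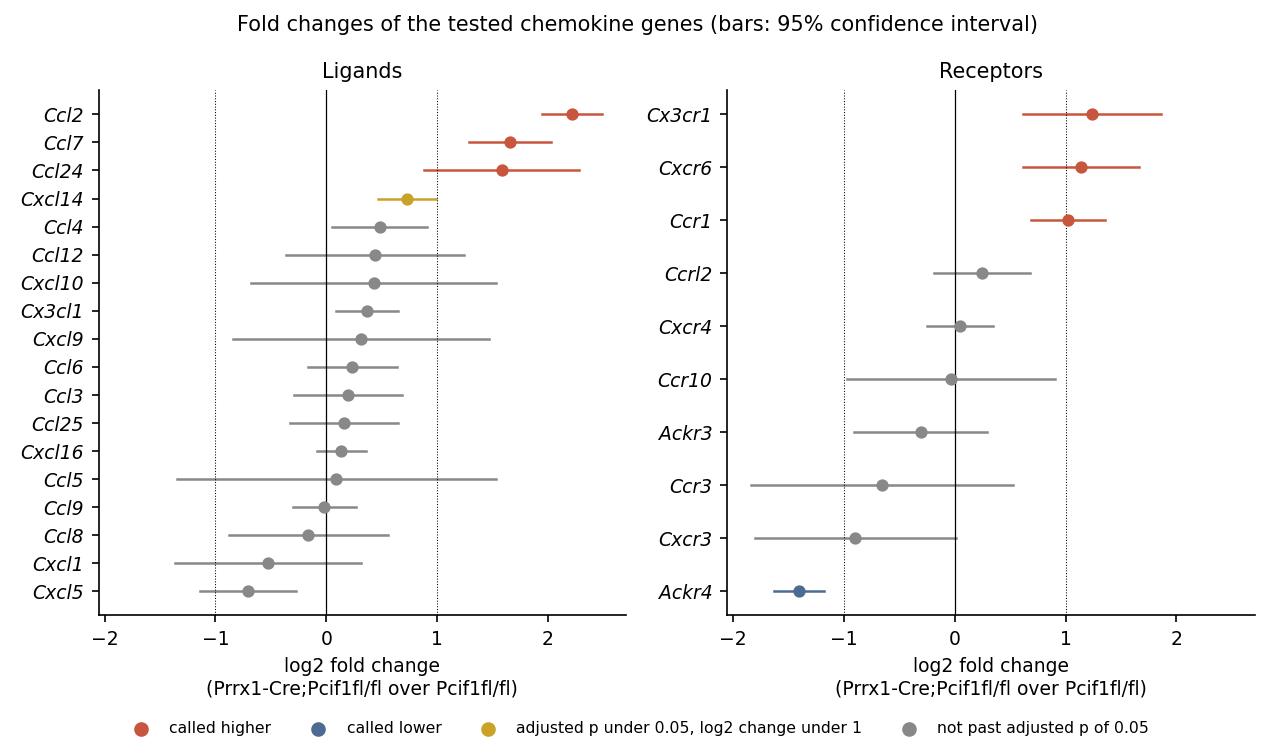
Log2 fold change of each tested ligand and receptor, CKO over WT MSCs, with 95% confidence intervals from edgeR. Ccl2 (2.22) lies furthest to the right and Ackr4 (-1.41) furthest to the left.

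Ccl2, the main attractant of CCR2-bearing monocytes, had the highest fold of the tested members. Its level was 13.5, 12.1 and 10.7 CPM in WT replicates 1 to 3 and 58.3, 55.2 and 55.9 CPM in CKO replicates 1 to 3. The lowest CKO library was far above the highest control library. The means were 12.1 ± 1.43 and 56.5 ± 1.64 CPM (SD, n = 3 each), a 4.66-fold increase (95% confidence interval 3.87 to 5.62; log2 fold change 2.22, SE 0.12, edgeR adjusted p = 5.23e-05). Ccl2 (ENSMUSG00000035385) lies on chromosome 11 from 82035571 to 82037453 (mm10), within an intron of the antisense gene Gm17268.

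Ccl7, a ligand of CCR1, CCR2 and CCR3 that is encoded next to Ccl2, rose with it. Its level was 14.5, 14.3 and 21.01 CPM in the controls and 52.3, 54.7 and 50.5 CPM in CKO MSCs. Every CKO library again exceeded every control library, and the control replicate 3 was the highest of its group. Ccl7 (chromosome 11, 82045712 to 82047525) was 3.16-fold higher (95% confidence interval 2.45 to 4.08; log2 fold change 1.66, SE 0.16, edgeR adjusted p = 0.000614).

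The neighbouring genes of the same monocyte-attracting group did not pass the test. Ccl12 stood at 1.75, 1.36 and 2.73 CPM in the controls and 2.16, 3.83 and 1.97 CPM in CKO MSCs (log2 fold change 0.44, SE 0.35, edgeR adjusted p = 0.527). Ccl8 stood at 5.55, 5.00 and 2.33 CPM in the controls and 4.28, 3.93 and 3.22 CPM in CKO MSCs (log2 fold change -0.16, SE 0.31, edgeR adjusted p = 0.803). The groups overlapped for both genes. Ccl11, which lies between Ccl7 and Ccl12 and encodes the eosinophil attractant eotaxin, had at most 2 counts in any library. The 5 genes span 81.2 kb of chromosome 11, from 82035571 to 82116799, so that 2 of the 4 tested genes of this block rose, against 1.03% of all genes tested. The ratio of Ccl2 to Ccl12 CPM within a library was 3.92 to 8.92 in the controls and 14.4 to 28.3 in CKO MSCs, a ratio formed after these values were seen.

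Ccr2, the receptor of CCL2, CCL7 and CCL12 on monocytes, was near the lower end of what was counted. It had 9, 5 and 10 counts in the controls and 9, 11 and 5 counts in CKO libraries, and was not tested. The groups overlapped, and whether a difference could be seen at this depth was not tested.

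Ccl24, an eosinophil attractant that acts through CCR3, rose from a low level. It had 16, 17 and 22 counts in the controls and 54, 50 and 30 counts in CKO libraries, or 0.699, 0.625 and 0.789 against 2.43, 2.49 and 1.44 CPM. The groups did not overlap, and the log2 fold change was 1.58 (SE 0.31, edgeR adjusted p = 0.0173). Without any 1 of 4 libraries the adjusted p rose above the threshold, with values of 0.0527 and 0.0739 without WT replicates 1 and 2 and of 0.0914 and 0.0827 without CKO replicates 1 and 2, while the log2 fold change stayed between 1.46 and 1.58 in these 4 fits. Ccr3 had 4 to 22 counts per library and did not pass the test (log2 fold change -0.66, SE 0.52, edgeR adjusted p = 0.521).

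Cxcl14, a homeostatic chemokine expressed by fibroblasts and epithelia, rose by less than the fold limit. Its level was 14.4, 12.7 and 13.1 CPM in the controls and 23.4, 22.2 and 20.8 CPM in CKO MSCs. The groups did not overlap, and the means were 13.4 ± 0.882 and 22.1 ± 1.27 CPM (SD, n = 3 each), a 1.66-fold increase. The log2 fold change was 0.73 (SE 0.12, edgeR adjusted p = 0.00693), and without CKO replicate 1 it was 0.69 with an adjusted p of 0.0507. Cxcl14 (chromosome 13, 56288643 to 56296551) thereby moved in the opposite direction to Cxcl12. Cxcl12 fell from 2895 to 3335 CPM in the controls to 498 to 607 CPM in CKO MSCs (log2 fold change -2.44, edgeR adjusted p = 5.23e-05).

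**Figure D3:**
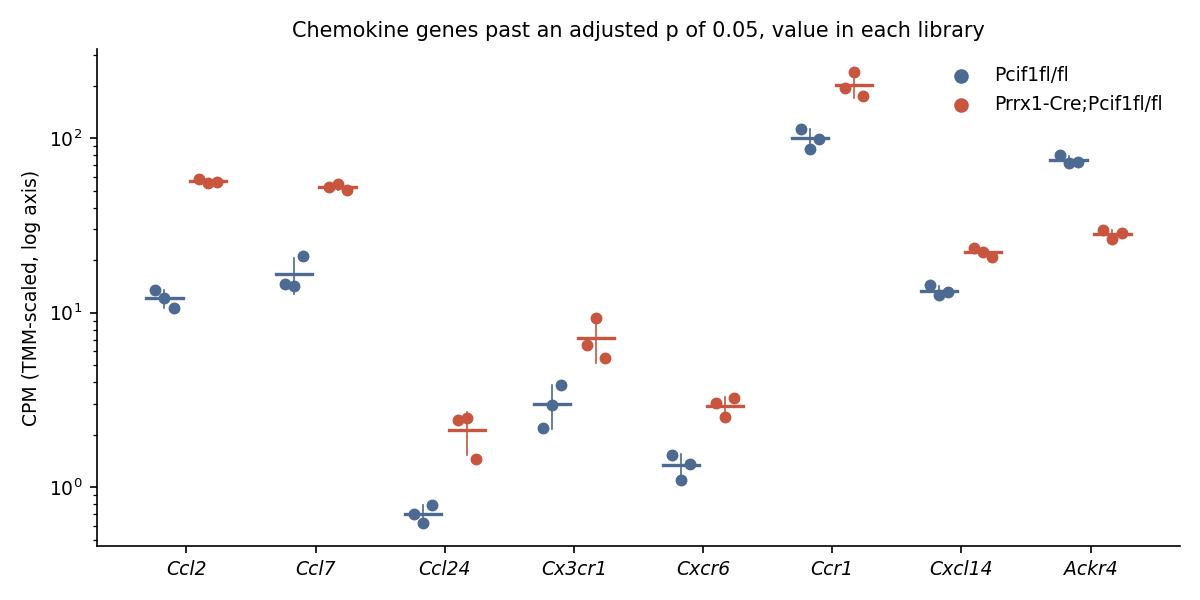
Level in each library, in CPM, of the chemokine genes that passed the test, on a log axis, with the mean and SD of each genotype. For Ccl2 the 3 control libraries lie between 10.7 and 13.5 CPM and the 3 CKO libraries between 55.2 and 58.3 CPM, and for Ackr4 the order is turned round.

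The abundant inflammatory CC ligands, encoded together in a second block of chromosome 11, did not pass the test. Ccl9 stood at 627, 577 and 456 CPM in the controls and 547, 567 and 524 CPM in CKO MSCs, with overlap (log2 fold change -0.02, 95% confidence interval -0.30 to 0.27, edgeR adjusted p = 0.949). Ccl6 stood at 455, 394 and 337 CPM in the controls and 414, 590 and 391 CPM in CKO MSCs, also with overlap (log2 fold change 0.23, 95% confidence interval -0.17 to 0.64, edgeR adjusted p = 0.497). Within a library Ccl2 was 0.0210 to 0.0234 of the Ccl9 level in the controls and 0.0972 to 0.107 of it in CKO MSCs.

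Ccl3 and Ccl4, inflammatory ligands released by activated macrophages, lie at the end of that block. Ccl3 stood at 35.6, 35.2 and 60.8 CPM in the controls and 53.5, 44.05 and 53.6 CPM in CKO MSCs, so that control replicate 3 alone exceeded the other genotype. Its log2 fold change was 0.20 (SE 0.21, edgeR adjusted p = 0.642), and 0.51 (adjusted p = 0.000908) without WT replicate 3. Ccl4 stood at 9.96, 9.19 and 6.35 CPM in the controls and 12.6, 10.6 and 12.4 CPM in CKO MSCs, with no overlap (log2 fold change 0.48, SE 0.19, edgeR adjusted p = 0.180). Ccl5, a T-cell and macrophage product, had 4 to 21 counts per library. None of the 5 genes of this block, which spans 138.9 kb from 83525778 to 83664683 on chromosome 11, passed the test of edgeR, DESeq2 or limma-voom over all 6 libraries, and Ccl4 was the 1 gene of them with an unadjusted p under 0.05 in edgeR.

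Ccr1, a receptor of Ccl3, Ccl6 and Ccl9 on macrophages and osteoclast precursors, rose, whereas these ligands did not pass. Ccr1 stood at 113, 87.1 and 98.7 CPM in the controls and 193, 240 and 174 CPM in CKO MSCs. The groups were far apart, and CKO replicate 2 was the highest library. The means were 99.7 ± 13.1 and 202 ± 33.7 CPM (SD, n = 3 each), a 2.03-fold increase (95% confidence interval 1.61 to 2.56; log2 fold change 1.02, SE 0.15, edgeR adjusted p = 0.00412). Its log2 fold change lay close to the limit of 1 and was 0.93 without WT replicate 2, 0.88 without CKO replicate 2 and 0.9996 with total-count scaling, with the adjusted p below the threshold each time.

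Cx3cr1 and Cxcr6, the receptors of the 2 membrane-bound chemokines, rose as well. Cx3cr1, which marks monocytes and tissue macrophages, stood at 2.18, 2.94 and 3.87 CPM in the controls and 6.53, 9.36 and 5.48 CPM in CKO MSCs. The groups did not overlap (log2 fold change 1.24, SE 0.27, edgeR adjusted p = 0.0293). Cxcr6, which is best known from T and NK cells, stood at 1.53, 1.10 and 1.36 CPM in the controls and 3.02, 2.54 and 3.22 CPM in CKO MSCs. These groups did not overlap either (log2 fold change 1.14, SE 0.23, edgeR adjusted p = 0.0202).

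Both calls were lost without some single libraries, while the direction stayed the same. For Cx3cr1 the adjusted p was 0.0742 and 0.104 without WT replicates 1 and 2, and 0.0874 and 0.116 without CKO replicates 1 and 2, with log2 fold changes of 0.9965 to 1.30. For Cxcr6 it was 0.0803 without WT replicate 2, and 0.0965 and 0.104 without CKO replicates 1 and 3, with log2 fold changes of 1.02 to 1.12. Cxcr6 lies within an intron of the antisense gene Fyco1, whose log2 fold change was -0.17 (edgeR adjusted p = 0.551), and 1.73% of Cx3cr1 exon sequence overlaps the antisense gene Gm33858.

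The ligands of these 2 receptors did not pass the test over all libraries. Cx3cl1, the membrane-bound ligand of CX3CR1, stood at 14.2, 12.4 and 15.2 CPM in the controls and 18.0, 18.5 and 17.4 CPM in CKO MSCs, with no overlap (log2 fold change 0.37, SE 0.12, edgeR adjusted p = 0.124). Without WT replicate 3 its log2 fold change was 0.44 with an adjusted p of 0.00898. Cxcl16, the ligand of CXCR6, stood at 47.2, 40.9 and 43.3 CPM in the controls and 49.0, 47.5 and 47.9 CPM in CKO MSCs, again with no overlap (log2 fold change 0.14, SE 0.10, edgeR adjusted p = 0.465). The antisense gene Zmynd15 overlaps 18.3% of the exon sequence of Cxcl16, and its own level was 2.80 to 4.46 CPM.

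Ccr1 and Cxcr6 lie within 435.1 kb of chromosome 9, from 123678439 to 124113557, together with Ccr9, Xcr1, Ccr3 and Ccr2. Of these 6 genes 3 were tested. Ccr1 and Cxcr6 rose, where 1.03% of all genes tested did, and Ccr3 did not pass. Without WT replicate 2 neither Ccr1 (log2 fold change 0.93) nor Cxcr6 (edgeR adjusted p = 0.0803) met both limits. Cx3cr1 (119901616 to 120069879) and Ackr4 (104084157 to 104126933) lie on the same chromosome outside the block.

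**Figure D4:**
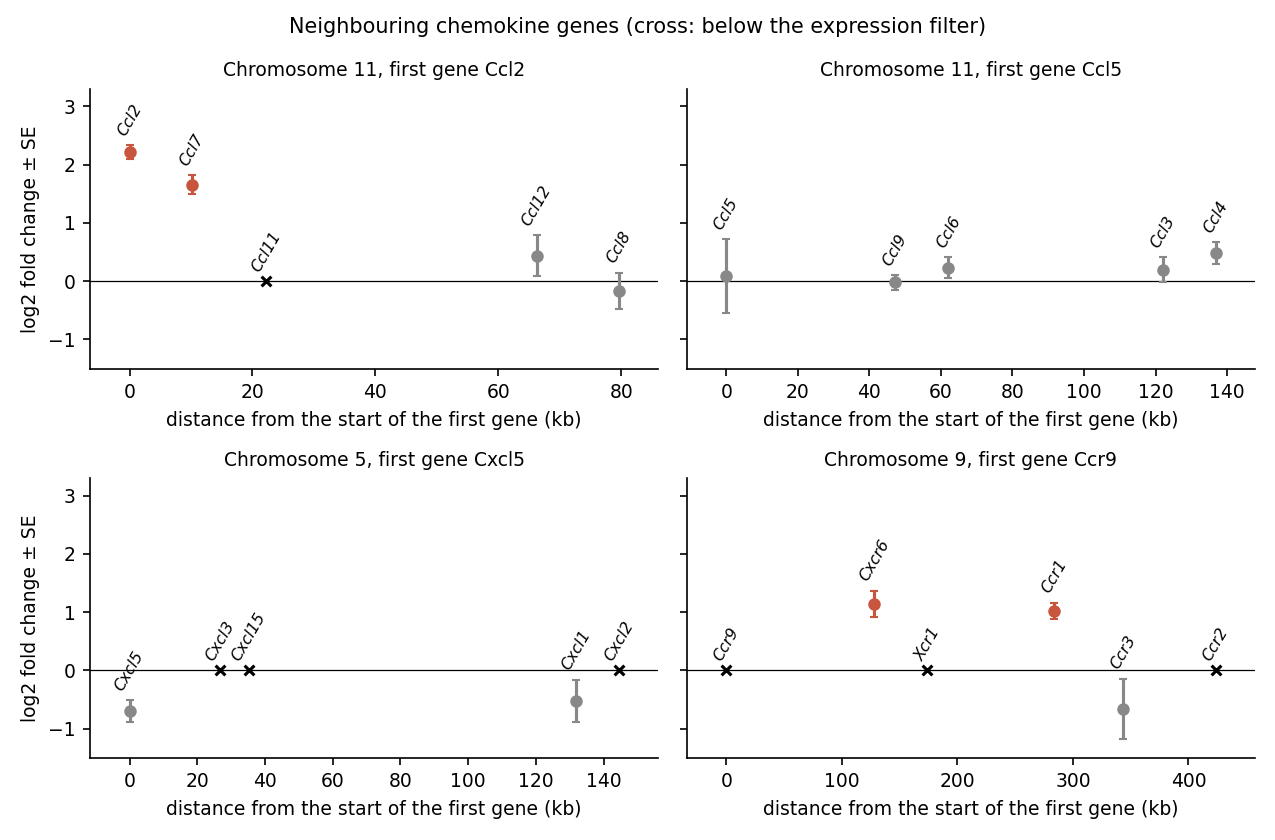
Log2 fold change of the chemokine genes in the 4 blocks that hold 5 or more of them, in their order along the chromosome, with genes below the expression filter marked apart. In the first chromosome 11 block Ccl2 and Ccl7 rose beside Ccl12 and Ccl8, which did not pass, and in the chromosome 9 block Ccr1 and Cxcr6 rose.

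Ackr4, an atypical receptor that takes up CCL19, CCL21 and CCL25, was the chemokine receptor that fell. Its level was 80.0, 72.0 and 73.0 CPM in the controls and 29.7, 26.5 and 28.5 CPM in CKO MSCs. No CKO library reached the lowest control library, and the spread within each genotype was small. The means were 75.0 ± 4.36 and 28.3 ± 1.61 CPM (SD, n = 3 each), so that 0.377 of the control level remained (95% confidence interval 0.323 to 0.441; log2 fold change -1.41, SE 0.10, edgeR adjusted p = 0.000154). The antisense gene Acad11 overlaps 8.90% of its exon sequence and had a log2 fold change of -0.29 (edgeR adjusted p = 0.123). Of its ligands, Ccl25 stood at 5.46, 6.03 and 9.29 CPM in the controls and 8.10, 7.27 and 7.94 CPM in CKO MSCs. Ccl25 did not pass (log2 fold change 0.16, SE 0.21, edgeR adjusted p = 0.708). Its log2 fold change was 0.44 (edgeR adjusted p = 0.0537) without WT replicate 3 and 0.024 without WT replicate 1. No entry under the symbols Ccl19, Ccl21 or Ccl21a was among the deposited genes.

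Cxcr4 and the other tested atypical receptors did not pass the test. Cxcr4, the receptor of CXCL12, stood at 84.0, 97.1 and 105 CPM in the controls and 107, 83.4 and 106 CPM in CKO MSCs, with overlap (log2 fold change 0.05, 95% confidence interval -0.25 to 0.34, edgeR adjusted p = 0.864). Ackr3, which takes up CXCL12, stood at 2.40 to 2.71 CPM in the controls and 1.35 to 2.55 CPM in CKO MSCs (log2 fold change -0.31, SE 0.26, edgeR adjusted p = 0.553). Ccrl2, which presents chemerin without signalling, stood at 3.86 to 4.91 CPM and 4.18 to 5.72 CPM (log2 fold change 0.25, SE 0.19, edgeR adjusted p = 0.512). Rarres2, which encodes chemerin, fell from 7.21, 6.06 and 5.45 CPM to 0.810, 0.249 and 1.06 CPM (log2 fold change -3.12, edgeR adjusted p = 0.00156).

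Neutrophil-attracting and interferon-induced CXC ligands were low in both genotypes. Cxcl5, a CXCR2 ligand, stood at 5.68, 4.92 and 4.55 CPM in the controls and 3.65, 2.84 and 2.79 CPM in CKO MSCs, with no overlap. It did not pass edgeR's test (log2 fold change -0.70, SE 0.19, adjusted p = 0.0615), whereas DESeq2 gave an adjusted p of 0.0464 and leaving out WT replicate 3 gave 0.0126. Cxcl1 stood at 1.87 to 4.11 CPM in the controls and 1.44 to 2.55 CPM in CKO MSCs (log2 fold change -0.52, SE 0.37, edgeR adjusted p = 0.465). The interferon-induced Cxcl9 and Cxcl10 ranged from 0.393 to 2.26 CPM over all libraries and overlapped. Cxcr3, their receptor on T cells, is X-linked and stood at 1.09 to 1.43 CPM in the controls and 0.315 to 0.914 CPM in CKO MSCs, with no overlap (log2 fold change -0.90, SE 0.39, edgeR adjusted p = 0.237). Ccr10 had 9 to 19 counts per library and overlapped.

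The remaining 16 members fell below the filter, with at most 15 counts in any library. These were the ligands Ccl11, Ccl17, Ccl20, Ccl28, Cxcl2, Cxcl3, Cxcl13, Cxcl15 and Cxcl17 and the receptors Ccr2, Ccr4, Ccr7, Ccr9, Cxcr1, Cxcr5 and Xcr1. Cxcl3, Cxcl17, Ccl11, Ccl20, Ccr4 and Cxcr5 had 3 counts or fewer in every library. Cxcl15 had 13, 2 and 8 counts in the controls and 1, 0 and 1 in CKO libraries, the groups of which did not overlap. The lymphoid-tissue genes Ccr7, Cxcr5 and Cxcl13 had at most 8 counts in any library.

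Annotated transcription starts were set beside these values because PCIF1 acts on mRNAs that begin with an adenosine. RefSeq promoters (GRCm38.p6, which is mm10) had an entry for 32 of the 44 members, and they are shown for the 5 members with an entry that passed the test at any fold. Ccl2, Ccl7 and Ccl24 had no entry. Each line runs from 90 bases before the annotated start to the tenth transcribed base, on the gene's own strand, and the capital marks the annotated first transcribed base. The windows are chr9:123968683-123968782 (minus strand) for Ccr1, chr9:120068287-120068386 (minus) for Cx3cr1, chr9:123806387-123806486 (plus) for Cxcr6, chr13:56296542-56296641 (minus) for Cxcl14 and chr9:104126634-104126733 (minus) for Ackr4.
Ccr1: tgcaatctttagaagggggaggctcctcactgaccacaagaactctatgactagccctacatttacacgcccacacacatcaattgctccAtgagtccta
Cx3cr1: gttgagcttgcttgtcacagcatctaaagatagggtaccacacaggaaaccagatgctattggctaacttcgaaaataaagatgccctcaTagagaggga
Cxcr6: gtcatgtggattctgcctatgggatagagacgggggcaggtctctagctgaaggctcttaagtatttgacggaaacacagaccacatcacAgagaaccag
Cxcl14: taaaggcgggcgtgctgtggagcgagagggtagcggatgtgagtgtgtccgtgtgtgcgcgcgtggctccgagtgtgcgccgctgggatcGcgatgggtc
Ackr4: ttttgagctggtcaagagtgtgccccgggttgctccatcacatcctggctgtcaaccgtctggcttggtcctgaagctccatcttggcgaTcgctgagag
Of the 4 genes with an entry that rose at any fold, Ccr1 and Cxcr6 have A as the annotated first base, Cx3cr1 has T and Cxcl14 has G, and Ackr4, which fell, has T. At least 1 annotated start at A was found for 13 of the 32 members, or 40.6%, against 39.2% of 27025 genes with a RefSeq promoter, so that the members lay close to the background. Cxcr4, Ccl9 and Cx3cl1, which did not pass the test, also start at A. The starts used in these cultures were not measured.

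Promoter windows that reach from 250 bases before to 50 bases after the start were also searched on both strands for the NF-kB consensus, the best-known element of inflammatory chemokine promoters. It was present in 8 of the 32 members, or 25.0%, against 5.14% of all genes with a promoter, where a gene counts when any of its promoters holds a match. Cxcl1, Cxcl2 and Cxcl3 share the match GGGAATTTCC, at 71, 97 and 73 bases before the start on the gene's strand. The other 5 were Ccl9, Ccl20, Cxcl10, Ccr3 and Ccrl2, and none of the 5 members printed above had a match. The letters TATAAA were found on either strand in 13 of the 32 members, or 40.6%, against 15.7% of all genes with a promoter. Of the 5 genes printed above, Ackr4 had such a match, outside the stretch that is shown. Such matches describe the sequence and are not shown sites.

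Many of the receptors are macrophage genes, and macrophage transcripts were abundant in both genotypes. All 13 macrophage markers of a fixed list were tested and none was at 0. Their summed level was 32290 to 35830 CPM in the controls and 33340 to 36520 CPM in CKO MSCs. Lyz2, which encodes lysozyme, held 65.6% to 71.8% of it, and the sum of the others was 9521 to 10870 and 9857 to 11520 CPM. Of the 13 markers, none passed edgeR's test at any fold, while 2 were higher and 1 lower at an unadjusted p under 0.05. DESeq2 called 2 higher at any fold and limma-voom called 0. The shares of all genes at the unadjusted limit and at any fold in DESeq2 were not counted. The median log2 fold change of the list was 0.15. Cd14, the lipopolysaccharide co-receptor, stood at 109, 116 and 79.2 CPM in the controls and 187, 123 and 173 CPM in CKO MSCs (log2 fold change 0.67, SE 0.19, edgeR adjusted p = 0.0717). Itgam, which encodes CD11b, stood at 92.2, 82.2 and 98.4 CPM in the controls and 115, 144 and 114 CPM in CKO MSCs (log2 fold change 0.45, SE 0.12, edgeR adjusted p = 0.0645). Both were higher in every CKO library than in any control library, as Ccr1 and Cx3cr1 were, and their part in those results was not tested. Adgre1, which encodes F4/80, stood at 568, 564 and 393 CPM in the controls and 602, 625 and 571 CPM in CKO MSCs, and Csf1r, the receptor of M-CSF, at 1244, 1175 and 1090 against 1002, 992 and 940 CPM. For neither gene did the genotypes overlap, with Adgre1 higher and Csf1r lower in CKO cultures, and neither passed the test (edgeR adjusted p = 0.398 and 0.141). Cd68 and Ptprc, which encodes CD45, overlapped between genotypes (log2 fold change -0.30 and 0.18, edgeR adjusted p = 0.445 and 0.475).

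Ccr1 also differed between genotypes relative to Adgre1 in the same library, in a ratio formed after the values were seen. Ccr1 was 0.154 to 0.251 of Adgre1 in the controls and 0.305 to 0.384 of it in CKO MSCs, without overlap. Adgre1 is 1 of the 13 macrophage markers. Ratios of Ccr1 to Cd14 and Itgam, which were also higher in every CKO library, were not formed. The ratio of Cx3cr1 to Adgre1 was 0.00384, 0.00521 and 0.00985 in WT replicates 1 to 3. In CKO replicates 1 to 3 that ratio was 0.0108, 0.0150 and 0.00961. The groups overlapped through WT replicate 3 and did not overlap without it. In bulk RNA, a change in the number of cells that express a gene and a change in its RNA per cell cannot be told apart.

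Markers of other cells moved with the same contrast. Of the 6 adipocyte markers tested, 4 fell by the fold criterion, against 2.50% of all genes tested, and Adipoq, which encodes adiponectin, went from 53.8, 42.9 and 44.3 CPM to 1.49, 0.697 and 0.289 CPM (edgeR adjusted p = 0.000111), yet the summed level of the list, carried by Lpl and Fabp4, overlapped at 474 to 572 and 426 to 614 CPM. Of the 10 mesenchymal stromal markers tested, 1 rose and 2 fell by the fold criterion, against 1.03% and 2.50% of all genes. At any fold 3 were higher and 3 lower, against 2.88% and 4.51% of all genes tested. Thy1, which encodes CD90, was the one that rose (log2 fold change 1.52, edgeR adjusted p = 0.0113), and Eng, which encodes endoglin, fell (log2 fold change -1.11, edgeR adjusted p = 0.00507). The other that fell was Lepr, the leptin receptor of marrow stroma, which went from 66.6, 71.9 and 102 CPM to 12.9, 12.2 and 11.4 CPM (log2 fold change -2.72, edgeR adjusted p = 0.000131). Col1a1 and Col1a2, which encode collagen I, rose by less than the fold limit (log2 fold change 0.61 and 0.64, edgeR adjusted p = 0.0154 and 0.0322). The summed level of that list, mostly collagen I, was 7605 to 9949 CPM in the controls and 12680 to 13510 CPM in CKO MSCs. The part of these differences in the levels of Ackr4, Cxcl14, Ccl2 and Ccl7 was not tested.

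Neutrophil, lymphocyte and endothelial transcripts were scarce. Of the neutrophil markers, 6 were in the table and 2 were tested. S100a8 rose by the fold criterion (log2 fold change 1.45, edgeR adjusted p = 0.0394), where 1.03% of all genes tested did. Its level was low, at 0.294 to 0.6115 CPM in the controls and 1.107 to 1.395 CPM in CKO MSCs. Camp, the other tested marker, did not pass (log2 fold change -0.59, edgeR adjusted p = 0.608). The sum of that list was 1.00 to 1.14 CPM in the controls and 1.44 to 1.98 CPM in CKO MSCs, and Mpo, Ly6g and Retnlg had 0 counts in all but 1 library each. The sum of the lymphocyte markers was 2.97 to 3.56 CPM and 2.12 to 3.98 CPM, of which Cd4 held 79.3% or more in each library, and that of the endothelial markers 29.3 to 43.3 CPM and 27.9 to 33.0 CPM. The part of these cells in the results for Cxcr6 and Cxcr3 was not tested.

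**Figure D5:**
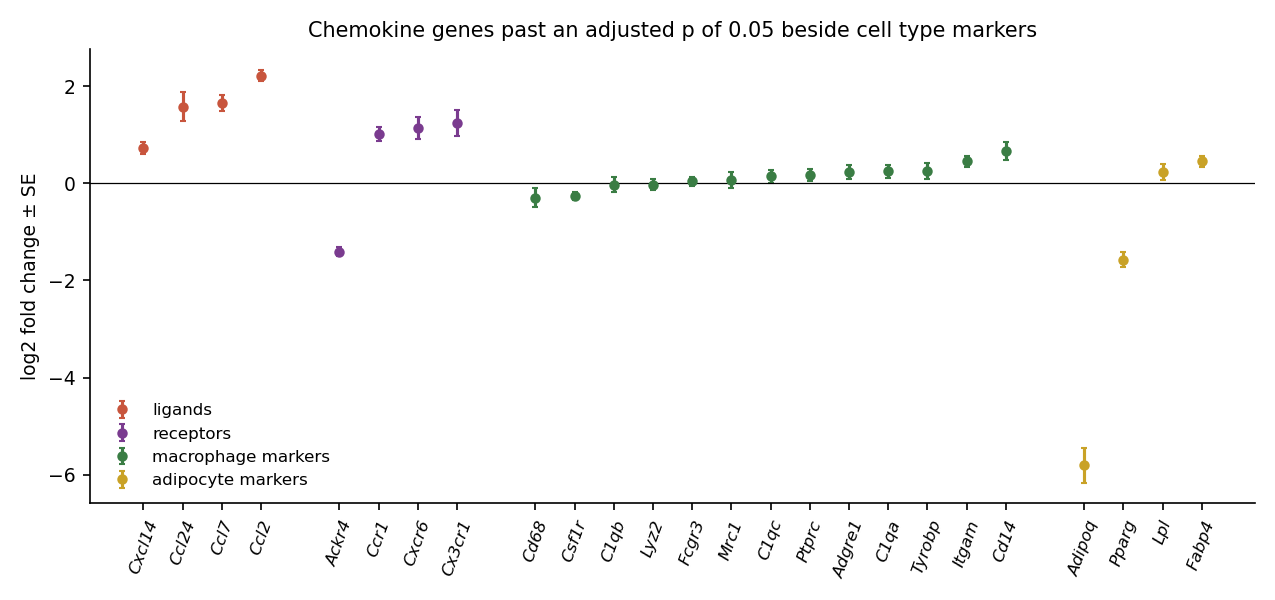
Log2 fold change, CKO over WT, with its standard error, of the chemokine genes that passed the test, the macrophage markers and the adipocyte markers, without 2 adipocyte markers at 3 counts or fewer in every CKO library. The macrophage markers lie between -0.30 and 0.67, while Adipoq lies at -5.80 and Pparg at -1.57.

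Genes that act with chemokines were counted from 4 related lists. Each list is read against the 1.03% of all genes tested that rose and the 2.50% that fell by the fold criterion, or 2.88% and 4.51% at any fold. Of 25 genes of receptor signal transduction tested, 1 fell and 0 rose in edgeR, DESeq2 and limma-voom alike, a count near that background. At an unadjusted p under 0.05 in edgeR, 3 were higher and 2 lower, and the share of all genes at that limit was not counted. The gene that fell was Gnai1, an inhibitory G-protein subunit. Gnai1 went from 26.5, 24.9 and 23.6 CPM to 7.70, 9.61 and 8.90 CPM (log2 fold change -1.52, edgeR adjusted p = 0.000322). Gnai2 and Gnai3, the other subunits of that kind, had log2 fold changes of -0.01 and 0.23 and did not pass (edgeR adjusted p = 0.976 and 0.237). The median of the list was -0.06.

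Of 16 NF-kB genes and feedback regulators, which control many inflammatory ligands, 1 passed edgeR's test at any fold, again near the background, and this was Nfkbie, which fell by less than the fold limit (log2 fold change -0.58, edgeR adjusted p = 0.0192). The median was 0.0004. Nfkbiz and Tnfaip3 had log2 fold changes of 0.59 and 0.37 and did not pass (edgeR adjusted p = 0.0832 and 0.123). At any fold limma-voom also had 1 gene of this list lower and 0 higher, and DESeq2 had 1 lower and 1 higher, the latter Nfkbiz. Of 12 inducing cytokines and cytokine receptors tested, Il1r1, the signalling IL-1 receptor, fell from 38.7, 35.7 and 45.6 CPM to 21.1, 17.6 and 18.0 CPM (log2 fold change -1.08, edgeR adjusted p = 0.00193). Tnf did not pass (log2 fold change 0.63, edgeR adjusted p = 0.174), and Il6 and Il1a were below the filter.

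Of 16 genes of ligand presentation and cleavage, Mmp2, a gelatinase that also trims chemokines such as CCL7, rose by less than the fold limit from 400, 377 and 365 CPM to 545, 541 and 533 CPM (log2 fold change 0.50, edgeR adjusted p = 0.00803). Sdc4, a heparan sulphate carrier, had a log2 fold change of 0.62 and did not pass in edgeR (adjusted p = 0.0629), though DESeq2 called it at any fold. The proteases Adam10 and Adam17, which release the ectodomains of CX3CL1 and CXCL16, had log2 fold changes of 0.17 and -0.003 (edgeR adjusted p = 0.355 and 0.991). The median of the list was 0.08.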

How the data were processed

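Poly(A) RNA of MSCs was sequenced by the authors in 3 libraries per genotype, and reads were mapped to mm10 with HISAT2. The deposited values are unnormalized read counts per gene, and the counting tool, annotation and use of strand are not given in the sources used here. The labels also name FastQC and DESeq2. The deposited design text speaks of duplicates, whereas the labels list 3 libraries per genotype, which were all used. Of 20163 rows, 92 repeat an ID with the same counts and were used once. No row was a total or an unassigned category.

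Testing used edgeR 4.0.16 in R 4.3.3 (filterByExpr, TMM, glmQLFit and glmQLFTest, no covariate) on the 13733 genes that passed, with Benjamini-Hochberg adjustment. Adjusted p-values in the text come from this fit unless another tool is named. The fits were checked on simulated counts. Positions and exon lengths are from GENCODE release M21 on GRCm38, and promoters from RefSeq on GRCm38.p6. A group at 3 counts or fewer was taken as at the floor. Counting error and the spread between libraries are covered, but not PCR duplicates. With 3 libraries against 3, an exact permutation test of 1 gene cannot go below p = 0.1.

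Beside Cxcl12, 1 gene that the symbol rule matches is not reported here, and counts of members leave it out. The members and gene lists were chosen with earlier results of these data known. Members are described in full if they were Ccl2 or Cxcl14, passed the test at any fold, or reached a mean of 5 CPM in a genotype, and at most 4 genes of each related list are named, by smallest p, with Cxcl12, Adgre1, Csf1r, Cd68 and Ptprc for context. Other marker genes, Gnai2, Gnai3, Adam10, Adam17, Tnf, Il6, Il1a and the low members were added for their roles after their values were seen. Alternatives were DESeq2 1.42.0, limma-voom (limma 3.58.1), RLE and total-count scaling, genes kept without a filter or from a mean of 10 counts up, a block for the replicate number, and omission of each library.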

Additional observations from a re-analysis of the deposited data

How the results depend on the processing

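The 18 members described in full were recomputed under 13 alternatives, and 213 of 234 values kept their direction and their side of the adjusted p threshold. Ccl2, Ccl7 and Ackr4 passed with the fold limit in all 13. The number of receptors that rose, 3 in the full fit, ranged from 0 to 3 when 1 library was left out: it was 0 without WT replicate 2, where Ccr1 passed the adjusted p but not the fold limit, 1 (Ccr1) without CKO replicate 1 and 1 (Cxcr6) without CKO replicate 2. These fits have fewer samples. The number of ligands that rose ranged from 2 to 3. The log2 fold change of Cxcr4 ranged from -0.032 to 0.16 without 1 library and changed sign, to -0.032 and -0.0088, without WT replicate 1 and without CKO replicate 1. That of Ccl9 ranged from -0.14 to 0.082 and changed sign, to 0.082, 0.013 and 0.013, without WT replicate 1, WT replicate 2 and CKO replicate 3. None of these passed the test, and the cause was not tested.

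Libraries of the same replicate number did not deviate together (correlations of 0.0701, -0.0552 and 0.00265 across genes), and only those numbered 1 correlated best with each other. With the replicate number as a block, 3 ligands and 3 receptors rose and 0 ligands and 1 receptor fell, as without it, and over all genes 126 rose and 326 fell, against 142 and 343. The median over all genes stayed between -0.021 and 0.013 in every setting. The 16 members with at most 15 counts in any library were not tested in the full fit. DESeq2 and the fit without a filter covered all 20071 genes, and none of these members met both limits there.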
